A study of Rattus norvegicus with 10 samples.

Results

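Class I olfactory receptors are the fish-like branch of the odorant receptor family. In the rat they carry symbols beginning with Or51, Or52, Or55 or Or56, and the set described here is every gene on the array with such a symbol, 1 probe set per gene. It held 123 genes among the 23188 probe sets tested, of which 15049 had a gene symbol. Femoral skeletal muscle had been taken from male wild-type Wistar rats killed by cervical dislocation. Rats of the 0 h group (n = 5) were sampled immediately, and rats of the 48 h group (n = 5) were kept at 25 °C for 48 h of postmortem interval (PMI) before sampling. The RNA of each rat was hybridised to its own Clariom S Rat array, a short-oligonucleotide array, so 10 arrays entered every fit. The values are log2 values after robust multi-array averaging (RMA), and a difference of 1 is a 2-fold difference.

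Odorant receptors are G protein-coupled receptors of the olfactory sensory neurons. A neuron expresses essentially a single receptor allele, and binding of an odorant activates the olfactory G protein Gnal, the adenylyl cyclase Adcy3 and a cyclic nucleotide-gated channel built from Cnga2, Cnga4 and Cngb1. The class I receptors are best known for recognising water-soluble odorants such as carboxylic acids, and in rodents they lie in a single cluster that encloses the beta-globin genes. Skeletal muscle is not a site where most of them are known to be expressed. The question here was therefore how their probe sets changed between 0 h and 48 h, and how that change compared with the array's own background probe sets, whose probes were designed to match nothing in the rat and are grouped by how many G and C bases they hold.

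The current RefSeq annotation of the rat (assembly GRCr8) holds 167 genes with class I symbols, 140 of them protein coding, and 123 of the protein-coding ones were measured. All 123 lie on chromosome 1 in that assembly. Another 33 probe sets had older Olr symbols that state no class and were not counted. For 108 of the 123 genes RefSeq gives a sequence around the annotated start. In 108 of 108 the annotated transcript begins with ATG, the start codon, against 97.5% of 903 class II receptor genes and 9.0% of 33469 genes in all. The first 50 annotated bases of 6 receptors are shown because they include the 2 largest changes, the Or51 gene with the largest change, the 2 smallest changes and the brightest probe set. The start codon is in capitals, and the coordinates are of GRCr8, not of the rn6 build the array values refer to.
Or52n4c, chr1:168383871-168383920, plus strand: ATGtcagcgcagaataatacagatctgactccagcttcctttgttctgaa
Or52b1, chr1:169097167-169097216, minus strand: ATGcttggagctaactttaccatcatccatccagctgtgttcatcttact
Or51b6b, chr1:167485541-167485590, minus strand: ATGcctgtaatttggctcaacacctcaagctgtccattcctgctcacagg
Or51e1, chr1:166560221-166560270, plus strand: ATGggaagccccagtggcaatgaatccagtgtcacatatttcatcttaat
Or51q1e, chr1:167894039-167894088, plus strand: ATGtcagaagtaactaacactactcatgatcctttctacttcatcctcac
Or51a10, chr1:167933524-167933573, minus strand: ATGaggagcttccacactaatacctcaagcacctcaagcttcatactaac

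Over the 108 receptors the G+C content of these 50 bases ran from 26.0% to 58.0% with a median of 46.0%. Among the receptors called higher below it was 42.0% in Or52n4c and Or52b1, 28.0% in Or52ae7, 50.0% in Or51b6b and 52% in Or52p2. It was 38.0% in Or51q1e, 44.0% in Or51a10 and 42.0% in Or51e1. Across the 108 receptors it had a Pearson correlation of -0.01 with the level at 0 h and of -0.10 with the change, given as a description because the points share the 10 arrays and the probes themselves may lie elsewhere in the gene. The 250 bases before the start were poor in G+C, with a median of 35.4% in class I, 34.0% in class II and 51.2% in all genes. The homeodomain core TAATNA, searched on both strands and free to overlap other motifs, was present in 61.1% of the class I windows, 62.0% of the class II windows and 25.4% of all windows. TATAAA, another motif of A and T, was present in 32.4%, 36.4% and 12.9%. Nearly all receptor windows lie before an annotated ATG, and most windows of all genes do not. The windows thus differ in placement and in base content, and no enrichment of a motif can be read from these shares. These matches describe letters in a window and were not examined for binding.

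The arrays differed more between the groups than within them. Pairs of arrays correlated at 0.978 to 0.988 within 0 h, at 0.901 to 0.940 within 48 h and at 0.832 to 0.887 between the groups. All 10 skeletal muscle markers were measured at 0 h with means between 10.97 and 13.5, and 8 of them were lower at 48 h by the call used below. RNA integrity at 48 h was not assessed by the authors, and its part in any result was not tested. In bulk muscle, fewer cells of a type and less RNA per cell cannot be told apart.

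The class I receptor probe sets were dim at 0 h and moved upward as a group by 48 h. On the 0 h arrays their medians were 3.32, 3.40, 3.47, 3.44 and 3.31, and on the 48 h arrays 3.91, 3.72, 3.87, 3.97 and 3.73. Every 48 h array lay above every 0 h array. The median over the background probe sets was 3.13, 3.06, 3.14, 3.13 and 3.04 on the 0 h arrays and 3.82, 3.63, 3.65, 3.80 and 3.54 on the 48 h arrays. It rose by 0.59 (two-sided exact permutation test, p = 0.00794, n = 5 per group, the smallest p that 252 splits allow), and its groups did not overlap either. The receptors' median stood above the background median by 0.29 ± 0.063 at 0 h and by 0.15 ± 0.059 at 48 h (SD, n = 5). Between 87 and 92 of the 123 receptors were above the background median on a 0 h array, and between 66 and 81 on a 48 h array.

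**Figure D1:**
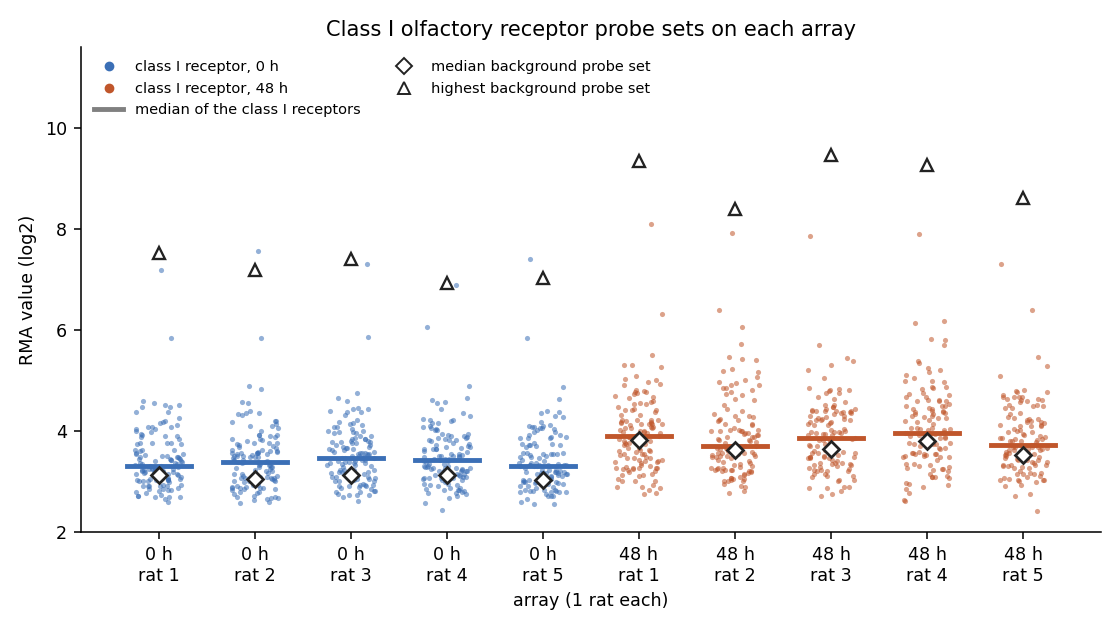
RMA value (log2) of the 123 class I receptor probe sets on each of the 10 arrays; a bar is the receptors' median, a diamond the median background probe set and a triangle the highest background probe set. Both medians are higher on all 48 h arrays than on all 0 h arrays, and at 48 h no receptor lies above the highest background probe set.

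All 23 background probe sets were higher at 48 h on every array than at 0 h on any. Their change depended on base content. For probes with 3 to 13 G or C bases among 25 it was between 0.28 and 0.47, for 14 such bases it was 0.59, and for 17 to 25 it was between 0.94 and 1.80. Their levels depended on it as well, running at 0 h from 2.42 for 3 such bases to 7.22 for 25. Most class I receptors lay within the lower part of this span. Of their 0 h means, 114 of 123 fell between those of the background probe sets with 3 and with 17 G or C bases, and 117 of 123 did so at 48 h. Of their changes, 86 of 123 fell within the range of the 23 background changes, 37 were smaller than the smallest and 0 were larger than the largest. The base content of the receptors' own probes was not used here, so no receptor could be set against background probes of its own composition.

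**Figure D2:**
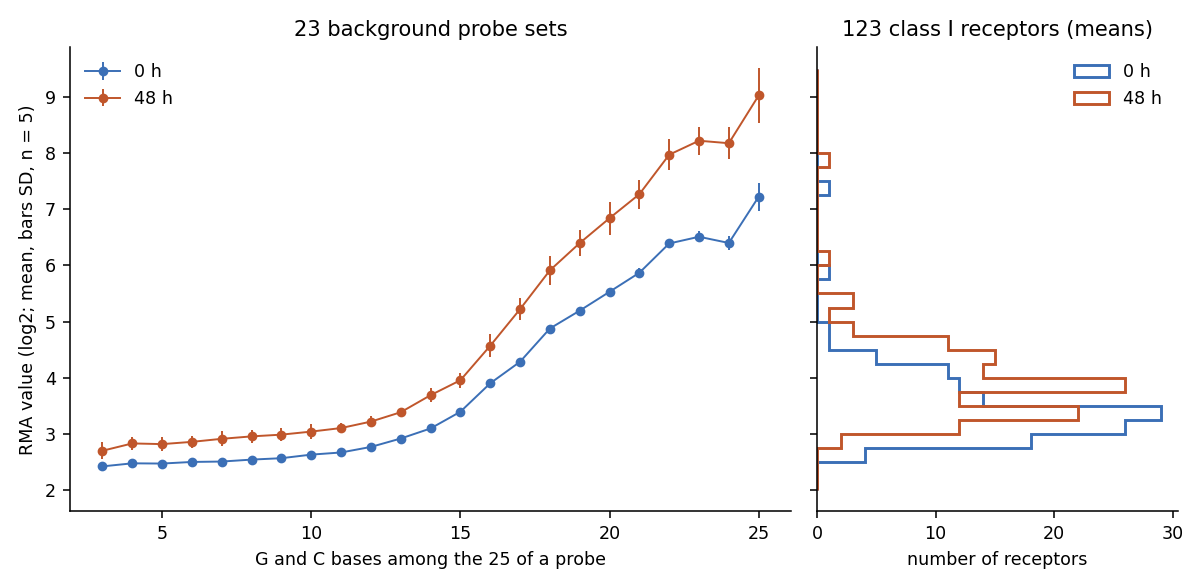
Left, mean RMA value (log2; bars, SD, n = 5) of the 23 background probe sets against the number of G and C bases among 25, at 0 h and 48 h; right, on the same axis, how many of the 123 class I receptors had a mean at each level. The background rises at every base content, most at 17 or more G and C bases, and nearly all receptors lie below the level of the background probe set with 17.

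A probe set was called higher or lower at an adjusted p under 0.05 (limma, Benjamini-Hochberg over all 23188 probe sets) and at least a 2-fold difference. By this call 6 of 123 class I receptors (4.88%) were higher at 48 h, and 4.35% of all probe sets tested were. None of the 123 was lower, against 12.1% of all probe sets. The share called higher was therefore near the background share. The receptors' 0 h means had a median of 3.37, and the lowest background probe set had a mean of 2.70 at 48 h. Many receptors thus had little room for a 2-fold fall, and a count of 0 lower does not show that they resisted one. With the adjusted p alone, 50 of 123 (40.7%) were higher, against 22% of all probe sets, and 0 were lower, against 22.8%. For 33 of 123 (26.8%) all 48 h arrays were above all 0 h arrays, against 13.4% of all probe sets, and for 0 they were all below, against 17.7%. Dim probe sets of any kind also seldom fell. They were banded by means that include the 48 h values, and the bands include the receptors themselves. Of 1947 probe sets with means over all arrays from 3 to 3.5, 0% were called lower. By the adjusted p 0.257% of them were lower and 32.3% higher, and 19.3% lay above without overlap. Of the 1947, 39 were class I receptors, 20.5% of them higher by the adjusted p, and 347 were class II receptors. Of 2784 with means from 3.5 to 4, 0.0718% were called lower. By the adjusted p 1.29% of these were lower and 31.9% higher, and 17.9% lay above without overlap. Of the 2784, 45 were class I receptors, 53.3% of them higher by the adjusted p, and 225 were class II receptors. The median change of the receptors was 0.43 (quartiles 0.24 and 0.68, range -0.18 to 1.36), beside a median of 0.10 over all probe sets, and 115 of 123 receptors had a positive change.

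**Figure D3:**
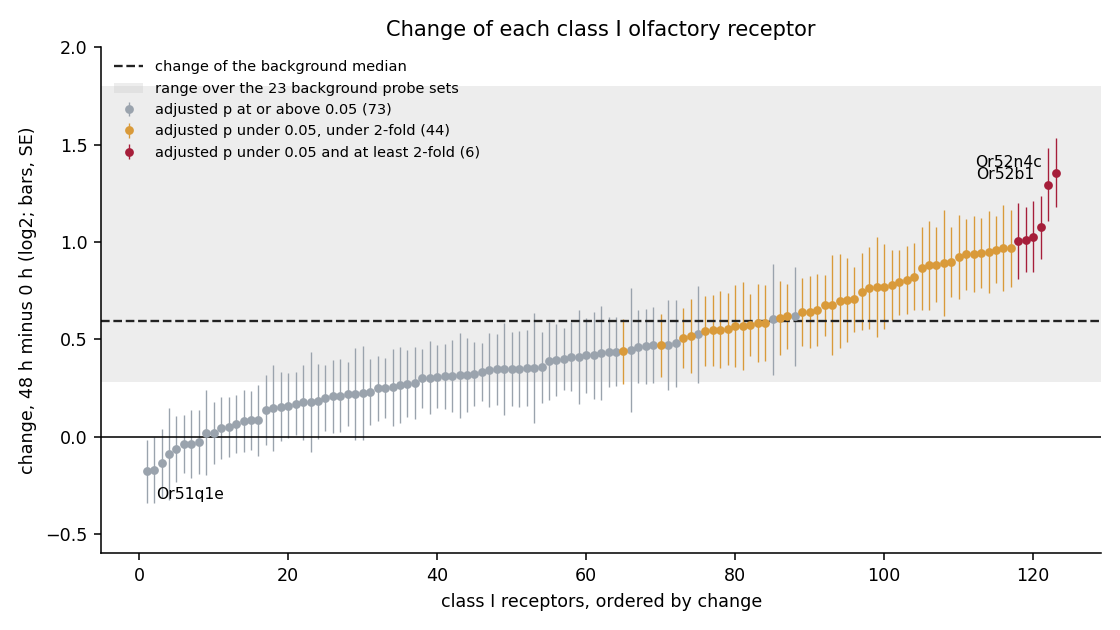
Change of each of the 123 class I receptors from 0 h to 48 h (log2; bars, SE), ordered by size and coloured by the limma call; the dashed line is the change of the background median (0.59) and the band the range over the 23 background probe sets (0.28 to 1.80). The 6 called receptors are at the right end, up to 1.36, and 84 receptors lie below the dashed line.

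Or52n4c had the largest change. Its values were 4.18, 4.18, 3.98, 4.11 and 4.07 at 0 h and 5.31, 6.06, 5.21, 5.26 and 5.47 at 48 h. Every 48 h array was above every 0 h array, and rat 2 was the highest at 48 h. The change was 1.36 ± 0.18 (SE, adjusted p = 1.08e-05). Its 0 h mean of 4.10 lay within the span of the background probe sets, so the change is one of the probe set's signal.

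Or52b1 came next. It was at 4.01, 3.77, 4.17, 3.92 and 4.07 at 0 h and at 5.26, 5.43, 4.81, 5.82 and 5.09 at 48 h, again without overlap, with a change of 1.29 ± 0.19 (SE, adjusted p = 3.13e-05). Or52n2, of the same Or52n subfamily as Or52n4c, was at 3.98, 3.91, 4.37, 4.16 and 4.31 at 0 h and at 5.09, 5.24, 5.44, 5.05 and 5.29 at 48 h. It rose by 1.08 ± 0.16 (SE, adjusted p = 4.15e-05), and its 5 values at 48 h were the closest together of the 6 receptors called higher, with an SD of 0.16.

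The other 3 passed the fold only narrowly. Or52ae7 was between 2.89 and 3.15 at 0 h (median 3.04) and between 3.65 and 4.55 at 48 h (median 3.93), a change of 1.03 (adjusted p = 0.000226). Or51b6b, the only Or51 gene among the 6, went from 2.84 to 3.07 at 0 h (median 2.98) to 3.68 to 4.33 at 48 h (median 3.92), a change of 1.01 (adjusted p = 0.000106). In Or52p2 the 0 h values lay between 3.29 and 3.49 (median 3.34), and at 48 h rat 3 stood at 3.60 while the other rats were between 4.45 and 4.73, a change of 1.004 (adjusted p = 0.000542). The 3 did not overlap between the groups. Without rat 4 of the 0 h group, rat 1 of the 48 h group or rat 4 of the 48 h group the calls of Or52ae7 and Or51b6b were lost, with changes of 0.91 to 0.99 for Or52ae7 and 0.92 to 0.98 for Or51b6b, and that of Or52p2 was lost on leaving out any single one of 7 arrays (rats 2, 3 and 5 at 0 h and rats 1, 2, 4 and 5 at 48 h), with changes of 0.912 to 0.999. In each case the change was under 2-fold while the adjusted p stayed under 0.05. Just under the fold stood Or52b4 and Or51i1 at 0.97, Or51g1 at 0.96, Or52ab2b at 0.95 and Or52m1 at 0.94, each with an adjusted p under 0.05.

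**Figure D4:**
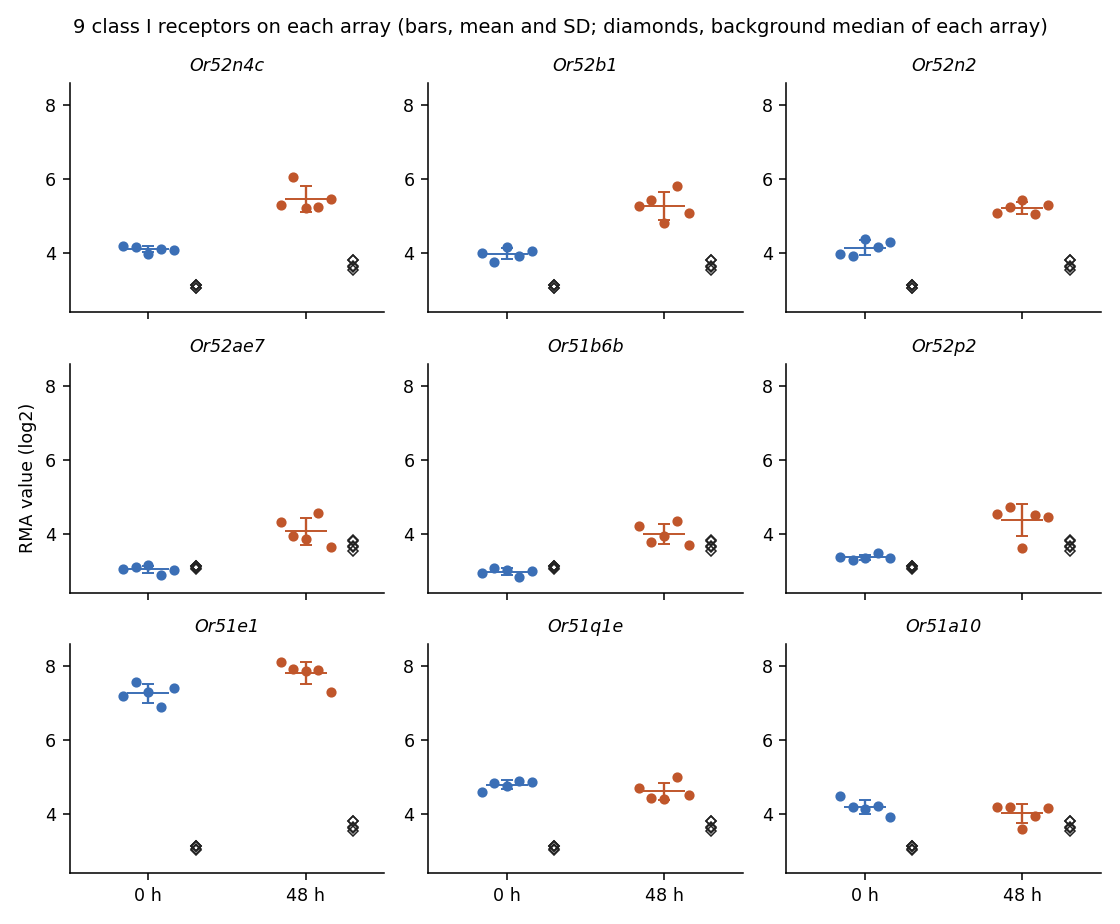
RMA value (log2) on each array of the 6 class I receptors called higher at 48 h, of Or51e1, the brightest at 0 h, and of the 2 receptors with the smallest change; bars are the mean and SD (n = 5 per group) and open diamonds the background medians of the same arrays. The 6 called receptors do not overlap between 0 h and 48 h, while Or51q1e and Or51a10 do.

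Or51e1 was the brightest member in both groups. Its human counterpart is also known from the prostate and responds to fatty acids. It was at 7.20, 7.56, 7.31, 6.89 and 7.41 at 0 h and at 8.11, 7.93, 7.87, 7.91 and 7.32 at 48 h. The groups overlapped through rat 5 of the 48 h group, and the change of 0.55 ± 0.18 (SE, adjusted p = 0.0225) was under 2-fold. Without rat 4 at 0 h the adjusted p was 0.0718 and without rat 1 at 48 h 0.0508, while cyclic loess and quantile normalization gave changes of 1.06 and 1.09 that were called higher. Its 0 h mean of 7.27 was the only member mean above that of every background probe set, the highest of which was at 7.22. On single arrays it exceeded the highest background probe set only in rats 2 and 5 of the 0 h group and in none of the 48 h group. Or51e2, its close relative, had no probe set among the 123.

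Or52s19 was the second brightest, with 0 h values between 5.84 and 6.06 (median 5.85) and 48 h values between 5.72 and 6.40 (median 6.31). Its change of 0.31 was not significant (adjusted p = 0.143). Or51q1 was among the 4 brightest at 48 h, with values between 4.24 and 4.58 at 0 h and between 4.59 and 6.14 at 48 h. Its change of 0.88 passed the adjusted p (0.0053) but not the fold.

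At the other end, 8 of 123 receptors had a negative change, none of them significant. Or51q1e was at 4.595, 4.84, 4.76, 4.89 and 4.87 at 0 h and at 4.70, 4.45, 4.41, 4.999 and 4.51 at 48 h, with overlapping groups and a difference of -0.18 (adjusted p = 0.387). Or51a10 was at 4.48, 4.205, 4.14, 4.23 and 3.93 at 0 h and at 4.19, 4.21, 3.60, 3.96 and 4.18 at 48 h, a difference of -0.17 (adjusted p = 0.431). Then followed Or52s6 at -0.14, Or51a25 at -0.09, Or51k7 at -0.07, Or56b2b and Or51k2 at -0.04 and Or52x1 at -0.03. Or51q1e and Or52x1 were also the next brightest members at 0 h after Or51e1 and Or52s19, with means of 4.79 and 4.51. Over the 123 receptors, level at 0 h and change were uncorrelated (Pearson r of -0.04, a description across genes that share the arrays).

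To relate the change to the background, the background median of each array was subtracted from all its values and the fit was repeated. On every array this median was the value of the background probe set with 14 G or C bases. The probe sets with 3 to 13 such bases changed by 0.28 to 0.47, less than its 0.59, so the results below depend on this choice. No class I receptor was then called higher, against 0.556% of all probe sets, and none was called lower, against 25.5%. Dim probe sets have less room to fall here as well. With the adjusted p alone, 5 of 123 (4.07%) were higher relative to background, against 3.07% of all probe sets, and 17 of 123 (13.8%) were lower, against 50.3%. The median change relative to background was -0.16 (range -0.77 to 0.76), beside -0.49 over all probe sets, and 39 of 123 receptors were above 0. Probe sets of any kind at similar levels lay nearer the receptors, which these bands include. At means from 3 to 3.5, 0.257% were called lower, with a median of -0.24. By the adjusted p 22.1% of them were lower and 0.719% higher. At means from 3.5 to 4, 1.87% were called lower, with a median of -0.26. By the adjusted p 26.7% of these were lower and 2.37% higher.

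The 5 that stayed higher by the adjusted p were Or52n4c at 0.76 ± 0.20 (SE, adjusted p = 0.00326), Or52b1 at 0.70 ± 0.19 (SE, adjusted p = 0.00389), Or52n2 at 0.48 (adjusted p = 0.0316), Or51b6b at 0.42 (adjusted p = 0.0387) and Or52ae7 at 0.44 (adjusted p = 0.0421). Or52p2, at 0.41, did not pass (adjusted p = 0.0933), and neither did Or51e1, at -0.04 (adjusted p = 0.872). The 17 that were lower included all 8 receptors whose own values had a negative change, led by Or51q1e at -0.77 ± 0.17 (SE, adjusted p = 0.000757), Or51a10 at -0.76 ± 0.18 (SE, adjusted p = 0.00174) and Or52s6 at -0.73. The remaining 9 had small positive changes of their own and were Or52h9, Or52ae8b, Or51s1, Or51v8b, Or51f4, Or51l1, Or52z13, Or52k1 and Or51a7b. Only the 5 and the 17 differed from the background median, and the other 101 were not distinguished from it by this test, which does not show that they moved with it exactly.

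The families were alike in direction. Of 70 Or52 genes, 5 were called higher and 32 passed the adjusted p, with a median change of 0.47 (7.14% and 45.7%, beside 4.35% and 22% of all probe sets). Of 43 Or51 genes, 1 was called higher and 17 passed the adjusted p, with a median of 0.40 (2.33% and 39.5%). The 2 Or55 genes changed by 0.53 and 0.42 and did not pass, and of 8 Or56 genes 1 passed the adjusted p, with a median of 0.32. Whether the families differed was not tested.

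Among the subfamilies of at least 4 genes, Or52n had the highest median change. All 12 of its genes had a positive change, 2 were called higher (16.7%, beside 4.88% of class I and 4.35% of all probe sets), 7 passed the adjusted p (58.3%, beside 40.7% and 22%), and the median was 0.59, the same as the change of the background median. The 14 Or52e genes were positive throughout as well, with 0 called, 7 past the adjusted p (50.0%) and a median of 0.47. The 6 Or51a genes had the lowest median, 0.21, and included Or51a10 and Or51a25. Genes of the same subfamily were about as different from each other as any, with a median absolute difference in change of 0.30 over 284 pairs, against 0.31 over all 7503 pairs. Members of one subfamily are close in sequence, and cross-hybridisation between them was not tested.

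Changes showed little relation to position along chromosome 1. Neighbouring receptors differed by a median of 0.28 over 122 pairs. In the first, second and last 41 receptors along the cluster the median change was 0.48, 0.40 and 0.44, and 1, 2 and 3 genes were called higher. Of the 123 probe sets, 7 of the Or52n genes had identifiers from an unplaced sequence of the array's older assembly, 1 (Or52z1) from an unmapped one and 1 (Or52e18) from chromosome 9, although GRCr8 places all of them in the cluster.

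The adult beta-globin genes inside the cluster had larger changes than any receptor around them. Hbb-bs, an adult beta-globin of red cells, was at 8.54, 8.51, 9.10, 8.29 and 9.12 at 0 h and at 11.38, 11.46, 11.09, 11.13 and 11.30 at 48 h. It rose by 2.56 ± 0.19 (SE, adjusted p = 2.69e-08), and Hbb-b1 by 2.45, Hbbl1 by 2.099 and Hbb by 2.098 with it. Whether the probes of these similar copies overlap was not examined, so the copies are not to be read as independent measurements. The embryonic and fetal globins Hbe2, Hbg1 and Hbe1, with changes of 0.90, 0.53 and 0.41, were not called. The remaining genes among the receptors were not called either, among them Trim6 at 0.65, Trim21 at 0.51, Olfm5, an olfactomedin, at 0.49, and the antiviral factor Trim5 at -0.27.

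**Figure D5:**
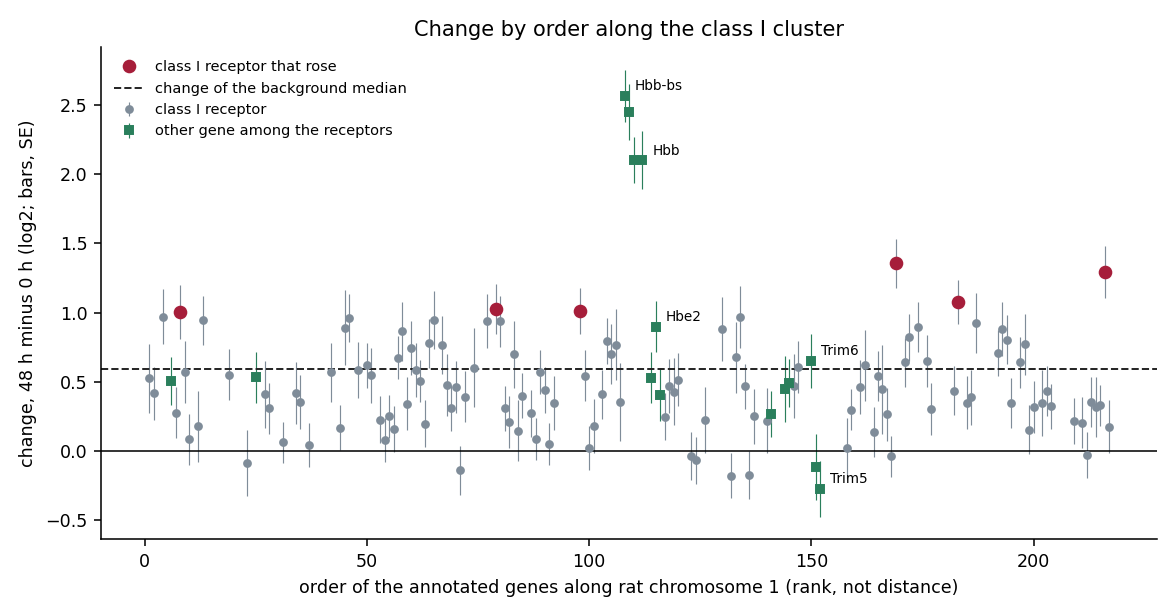
Change from 0 h to 48 h (log2; bars, SE) of the class I receptors and of other measured genes between them, by rank along rat chromosome 1 in GRCr8. The 6 receptors that rose are spread over the cluster, and the adult globin genes, between 2.098 and 2.56, stand above every receptor.

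The genes that olfactory neurons need beside a receptor showed no common upward change. Of 8 olfactory sensory neuron markers 7 were measured, 0 were called, and the median change was -0.19. Relative to the background median all 7 were lower by the adjusted p, beside 50.3% of all probe sets, with a median of -0.78. Omp, the olfactory marker protein, was at 5.33, 5.29, 5.27, 4.80 and 5.01 at 0 h and at 4.601, 4.79, 5.27, 4.47 and 5.57 at 48 h, with overlapping groups and a difference of -0.20 (adjusted p = 0.46). Of 4 measured markers of sustentacular and basal cells 0 were called, with a median of 0.49.

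Of 15 signal transduction genes 12 were measured, 2 were called higher and none lower. Cnga2, the main subunit of the olfactory channel, was at 3.44, 3.22, 3.21, 3.36 and 3.20 at 0 h and at 4.64, 4.79, 5.25, 5.72 and 4.49 at 48 h. The groups did not overlap, and the change was 1.69 ± 0.21 (SE, adjusted p = 6.08e-06), or 1.102 relative to the background median (adjusted p = 0.000176). Its means of 3.28 at 0 h and 4.98 at 48 h lay within the span of the background probe sets, whose changes ran up to 1.80. The change is thus one of the probe set's signal. Pde1c, a calcium-dependent phosphodiesterase also present outside the nose, rose by 1.37. Pde4a, a cAMP phosphodiesterase, fell short of the fold with a change of -0.98 (adjusted p = 0.000675, no overlap between the groups), and relative to the background median it was called lower, at -1.58 (adjusted p = 2.22e-06). Gng13, a G protein gamma subunit, changed by 0.98 (adjusted p = 0.000347, no overlap) and by 0.39 relative to background (adjusted p = 0.0852). Gnal changed by 0.45 (adjusted p = 0.0938) and Adcy3 by -0.10 (adjusted p = 0.635), and the other channel subunits Cnga4 and Cngb1 by 0.22 and 0.27, none of them called. Relative to the background median Adcy3 was lower, at -0.69 (adjusted p = 0.00188), while Gnal, Cnga4 and Cngb1 did not pass the adjusted p. Of 14 measured genes of receptor trafficking and receptor choice 1 rose, the transcription factor Ebf1, by 1.55, and 1 fell, the G protein chaperone Ric8b, by 1.08. The receptor transporters Rtp1 and Rtp2 changed by 0.29 and -0.38 and were not called. These lists carry genes with roles in many tissues, and the share called higher in each is to be read beside the 4.35% of all probe sets.

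The class II receptors, the larger branch of the family, had values similar to those of class I. Of 901 class II genes 50 (5.55%) were called higher and 1 lower, 394 (43.7%) passed the adjusted p upward, and the median change was 0.44. Relative to background their median was -0.16, with 32 higher and 125 lower (13.9%) by the adjusted p. On single arrays the class I median stood above the class II median by 0.14 ± 0.042 at 0 h and by 0.12 ± 0.091 at 48 h (SD, n = 5). The 2 classes were also set side by side in bands of the mean over all arrays, with no test. The probe sets of any kind include both classes, and the 48 h values helped to set the band. At means from 3.5 to 4 the median change was 0.57 for 45 class I genes, 0.52 for 225 class II genes and 0.34 for 2784 probe sets of any kind. At means from 3 to 3.5 it was 0.34 for 39 class I genes, 0.42 for 347 class II genes and 0.35 for 1947 probe sets. The bands with few class I genes differed more, with medians of 0.88 for 8 class I and 0.48 for 62 class II genes at means from 4.5 to 5, 0.41 for 9 and 0.27 for 111 at means from 2 to 3, and 0.43 for 2 and 0.65 for 2 at means from 6 to 8. At means from 4 to 4.5 they were 0.43 for 20 class I and 0.49 for 114 class II genes.

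Rats differed from each other more at 48 h than at 0 h. The median SD over the 5 rats was 0.16 at 0 h and 0.36 at 48 h for class I receptors, and 113 of 123 (91.9%) had the larger SD at 48 h, against 85.5% of all probe sets. The largest SDs at 48 h were those of Or52n20, 0.92, and Or52ae7b, 0.79. Or52n20 was at 3.60, 4.004, 3.99, 5.81 and 3.60 at 48 h, and at 3.54 to 3.98 at 0 h, so that rat 4 stood alone well above the 0 h range. Or52ae7b was at 2.94, 5.17, 3.99, 3.95 and 3.80 at 48 h, below the lowest 0 h value of 3.19 in rat 1 and highest in rat 2.

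The probe sets with a gene symbol that followed Or52n4c most closely over the 10 arrays were those of Ggt6, Tmod3, Fes, Map4k3 and Myo1d, with Pearson r between 0.978 and 0.985. The measure is dominated by the difference between the 2 groups and is given as a description. Of the 5, Tmod3, an actin-capping tropomodulin, rose by 1.23, and the myosin gene Myo1d by 1.57.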

How the data were processed

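Each of 10 rats gave 1 femoral muscle RNA and 1 Clariom S Rat array. Groups and rat numbers came from the sample labels. The authors used the 3′ IVT Pico kit for labeling. They ran RMA in the Transcriptome Analysis Console, for which the submitters' notes on processing name version 4.0 and the genome build rn6. The deposited table therefore holds log2 values, background-corrected, quantile-normalized across arrays and summarised per probe set. They were used as deposited. RMA makes arrays relative to each other, and cannot show a change that all transcripts share. The number of arrays limits the precision.

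From these values, 1646 control probe sets were set aside and 23188 tested with limma 3.58.1 in R 4.3.3, 5 arrays against 5, with empirical Bayes moderation and Benjamini-Hochberg adjustment. A call needed an adjusted p under 0.05 and a 2-fold difference. The second fit subtracted the median of 23 background probe sets from each array. On every array that median was the probe set with 14 G or C bases. Symbols came from the platform annotation and were updated through gene identifiers to RefSeq GRCr8. Each class I gene had 1 probe set, so choosing the brightest changed nothing. The fit was tested on simulated data with changes well above the fold of the call and the 0 h spread in both groups. That test does not cover changes near the fold or the larger spread at 48 h. Figures were drawn with matplotlib 3.10.9.

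The members, gene lists and tests were chosen with earlier results of these data known. The text names every called member, the 6 largest and 6 smallest changes, also relative to background, the 4 brightest at each time, the 2 most variable at 48 h, Or51e1, genes of the lists by size of change, genes lying among the receptors, and the 5 probe sets most correlated with the top member. Cnga4, Rtp1, Rtp2, Gnal, Adcy3 and Omp were named for their roles, and Or52b4, Or51i1, Or51g1, Or52ab2b, Or52m1 and the receptors lower relative to background after their values were seen. A comparison of receptor proteins was not made here. The groups hold different animals, so rat numbers do not pair them. Alternatives were other normalizations and centrings, moderation, thresholds, the rat number as a block and each array left out. P-values measure the spread between these rats.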

Additional observations from a re-analysis of the deposited data

Results flagged for a closer look

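For each of the 18 receptors named in the text by rule and 3 array medians, the arrays of each group were searched for 1 value far from the other 4, by Dixon's gap criterion. Of 42 groups 7 stood out. The 18 were named partly for their change or their SD at 48 h in these same values, so that count has no fair chance rate. Over all 123 receptors 19 of 246 groups stood out, 11 of them at 48 h. Chance alone does so in about 1 group in 20. At 48 h, Or52n20 was at 5.81 in rat 4, with the next rat at 4.004. Or51a25 was at 4.86 in rat 2, with the next at 3.76, and Or51k7 was at 3.49 in the same rat, with the next at 4.01. In rat 3 at 48 h Or52p2 was at 3.60, with the next at 4.45, and Or56b2b was at 3.34, with the next at 3.11. At 0 h, Or52s19 was at 6.06 in rat 4, with the next at 5.87, and Or56b2b was at 3.00 in rat 5, with the next at 3.19. None of these arrays stood out in the median of the class I receptors or of the background probe sets.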

How the results depend on the processing

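The scaling of the arrays set the direction of the receptors' change. The count called higher, 6 as reported, was 3 after cyclic loess, 3 after quantile normalization of the probe sets, and 0 after centring on the background median, on the E. coli and P1 controls or on the Bacillus controls. Centring on the background median is the same comparison as the fit relative to background above, not a further one. The count called lower, 0 as reported, was 37 on the E. coli and P1 controls and 120 on the Bacillus controls, whose own means differed by 1.28 and 2.07 between the groups. The median change, 0.43 as reported, was 0.10 after cyclic loess, 0.18 after quantile normalization, -0.16 on the background median, -0.85 on the E. coli and P1 controls and -1.64 on the Bacillus controls. Without the fold, 50 were higher, and with 1.5-fold 37. Relative to background, 5 were higher and 17 lower without the fold, 2 and 8 with 1.5-fold, and against the highest background probe set 102 were lower, with a median of -1.37. That probe set, with 25 G or C bases, itself rose by 1.80. Nearly all receptors lay at levels of probe sets with 17 or fewer, so those 102 follow largely from the choice of reference.

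Among the named receptors, the sign turned on the background median in Or51e1 (-0.040), Or52s19 (-0.28) and Or52n20 (-0.15). On the E. coli and P1 controls it turned in Or52p2 (-0.27), Or52ae7 (-0.25), Or51b6b (-0.27), Or52n2 (-0.20), Or51e1 (-0.73), Or52s19 (-0.97), Or51q1 (-0.40), Or52n20 (-0.83) and Or52ae7b (-0.67). On the Bacillus controls it turned in Or52p2 (-1.07), Or52ae7 (-1.04), Or51b6b (-1.06), Or52n4c (-0.71), Or52n2 (-0.995), Or52b1 (-0.78), Or51e1 (-1.52), Or52s19 (-1.76), Or51q1 (-1.19), Or52n20 (-1.62) and Or52ae7b (-1.47). Each of these centrings subtracts 1 value per array, so every change falls by the shift of the reference (0.59, 1.28 or 2.07). The sign turns in any gene that rose by less than that. The cause of the references' own shift was not tested. Or51e1 was called higher after cyclic loess (1.06) and quantile normalization (1.09).

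With each array left out, the count called higher ran from 5 (without rat 4 at 48 h) to 11 (without rat 2 at 48 h), the count called lower was 0, the median change ran from 0.38 to 0.45, relative to background from -0.18 to -0.11, and the change of the background median from 0.56 to 0.63, with 0 called relative to background in either direction. The background change was 0.82 for the mean of the probe sets and 0.25 after cyclic loess. Without single arrays the sign turned in Or51k7 (-0.124 to 0.058), Or52x1 (-0.077 to 0.084), Or52s6 (-0.219 to 0.0073) and Or51a25 (-0.341 to 0.040), none of them called.

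With the rat number as a replicate block, 6 were called higher and 0 lower, and 0 and 0 relative to background, and no other call changed. Same-numbered rats are different animals, their deviations from the group means correlated at -0.004 to 0.076, and not every sample correlated best with its own number. Trend and robust moderation and no moderation gave the same counts. Leaving out probe sets dimmer than the highest background mean (8.12) left 0 receptors and gave no value. Levels near the background limit what changes can be measured.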
